A study of Mus musculus with 6 samples.

Results

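The 6 mouse satellite cell libraries of the series, all taken at day 4 of culture, fell into 2 sets that differed in *Myog*, the gene of myogenin, the transcription factor that marks a myoblast's entry into terminal differentiation. The 3 Myog-high libraries held more than 10000 scaled *Myog* reads (reads divided by a library's size factor) and the 3 Myog-low libraries held fewer. The libraries were therefore selected on a measured value, so the contrast between them is described below by values and counts, and carries no test. The Myog-high libraries are control 1, control 3 and the library labelled knockout 1, and the Myog-low libraries are the library labelled control 2, knockout 2 and knockout 3. By the labels, genotype is unbalanced between them, with 2 controls and 1 knockout against 1 control and 2 knockouts.

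The series compared 3 control libraries with 3 libraries labelled *Islr* knockout, made from total RNA of skeletal muscle satellite cells. Both genotypes were grown in medium with serum and basic FGF, which keeps myoblasts dividing, and no change to a differentiation medium is named. The labels do not name the alleles, the Cre driver, the animals or their age, and the series' design text speaks of cells sorted by whether they carried *Islr*. Nothing says that libraries of one genotype came from separate animals or cultures, so a spread between them may be technical.

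Satellite cells are the stem cells of skeletal muscle. Activated ones divide as myoblasts that carry *Pax7*, *Myf5* and *Myod1*, then leave the cell cycle, switch on *Myog*, fuse and build sarcomeres. MyoD and myogenin bind short E-box sequences beside muscle genes, often together with MEF2 proteins, and genes of the G2 and M phases of the cell cycle are commonly driven through CCAAT boxes and the element known as CHR, which is bound by the DREAM and MuvB complexes.

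The promoters of 4 genes are shown, 2 muscle genes that separated the sets and 2 cell cycle genes that did not, because they carry these elements. Each line holds the 250 bases before the start, from RefSeq on GRCm38.p6. Capitals mark E-boxes (CANNTG) and the core of the MEF2 motif (TANNNNTA with only A or T at the N positions) in *Myog* (chr1:134289754-134290003, plus strand) and *Myh3* (chr11:67078050-67078299, plus strand). In *Ccnb1* (chr13:100786487-100786736, minus strand) and *Cdk1* (chr10:69352913-69353162, minus strand) they mark CCAAT and TTTGAA, the core of CHR, on either strand.
Myog: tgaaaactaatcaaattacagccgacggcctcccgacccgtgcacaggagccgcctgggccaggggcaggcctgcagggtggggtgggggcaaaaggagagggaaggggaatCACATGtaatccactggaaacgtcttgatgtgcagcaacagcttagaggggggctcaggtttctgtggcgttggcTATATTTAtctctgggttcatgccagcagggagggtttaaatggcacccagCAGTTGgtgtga
Myh3: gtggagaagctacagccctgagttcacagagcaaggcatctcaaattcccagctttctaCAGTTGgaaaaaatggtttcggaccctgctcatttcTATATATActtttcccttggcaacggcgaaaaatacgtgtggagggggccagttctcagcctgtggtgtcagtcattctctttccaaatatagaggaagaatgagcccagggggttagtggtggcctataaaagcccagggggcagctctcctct
Ccnb1: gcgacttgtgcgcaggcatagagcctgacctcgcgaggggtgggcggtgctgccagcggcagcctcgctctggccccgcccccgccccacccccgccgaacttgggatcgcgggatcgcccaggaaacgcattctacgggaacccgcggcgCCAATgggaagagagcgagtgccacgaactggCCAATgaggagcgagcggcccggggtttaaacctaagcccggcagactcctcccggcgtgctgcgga
Cdk1: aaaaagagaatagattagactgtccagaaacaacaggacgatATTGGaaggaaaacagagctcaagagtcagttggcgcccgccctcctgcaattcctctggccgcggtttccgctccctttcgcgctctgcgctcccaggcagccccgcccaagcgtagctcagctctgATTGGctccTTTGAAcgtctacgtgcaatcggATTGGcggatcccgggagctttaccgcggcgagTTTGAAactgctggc
The *Myog* window held E-boxes 138 and 12 bases before the start and a MEF2 core 63 bases before it. The window of *Ckm*, muscle creatine kinase, was also read but is not shown. It held 1 E-box and no MEF2 core. The *Cdk1* window held TTTGAA 71 and 15 bases before the start and 3 CCAAT boxes, and *Ccnb1* held 2 CCAAT boxes and no TTTGAA, which says only that these letters are not in this window.

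These elements were also counted on both strands in windows of 300 bases, 250 before and 50 after the start, in the 27025 gene symbols of the RefSeq promoter table. CAGCTG, one form of E-box, was found in 16.1% of all windows and in 15.2% of the 10534 that matched a gene analysed here. It was in 8 of 22 windows of myosin and thick filament genes and in 14 of 29 of thin filament and Z-disc genes (48.3%). Among excitation-contraction coupling genes it was in 7 of 18, and the *Myog* and *Myh3* windows did not hold it. CACCTG, another form, was in 16.8% of windows matching an analysed gene. In the same 3 lists it was in 31.8%, 17.2% and 22.2%. E-boxes of any form were in 62.7% of windows matching an analysed gene and in 81.8%, 86.2% and 72.2% of these lists. The MEF2 core was in 9.44% of all windows, in 4.39% of those matching an analysed gene and in 10 of the 22 thick filament windows (45.5%). It was in 7 of the 29 thin filament windows (24.1%) and in 4 of the 18 coupling windows (22.2%). TTTGAA was in 18.1% of all windows, in 11.7% of those matching an analysed gene and in 28 of 37 windows of G2/M genes (75.7%). When only the 250 bases before the start were read, it was in 16.3%, in 10.3% and in 10 of the 37 (27.0%). CCAAT was in 37.9% of all windows of 300 bases, in 38.6% of those matching an analysed gene and in 29 of the 37 (78.4%). A match describes letters and is not a bound site.

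*Myog* stood at 43370 scaled reads in control 1, 43261 in control 3 and 37228 in the library labelled knockout 1. It stood at 5737 in knockout 3, 1998 in knockout 2 and 417 in the library labelled control 2, so the values nearest the threshold of 10000 are 37228 and 5737. The Myog-low libraries were not alike, since knockout 3 held over 10 times the *Myog* of the library labelled control 2. Replicate number ran with the *Myog* level. Both libraries numbered 1 were high and both numbered 2 were low, while number 3 was high in the control and low in the knockout. Only the number 3 pair therefore offers a contrast within a number, and there it is also the contrast of genotypes. For numbers 1 and 2, the *Myog* level and the number cannot be told apart.

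Total reads per library lay between 16456917 and 20531276 and the size factors between 0.858 and 1.19. The myoblast genes checked the labelled cell type. *Myod1*, which commits cells to muscle, stood between 18888 and 33818 scaled reads in the 6 libraries, *Myf5* between 1197 and 2254 and *Pax7* between 1233 and 2729. *Islr*, the targeted gene, was at 181, 12.8 and 1579 in controls 1, 2 and 3 and at 257, 7.38 and 10.9 in the libraries labelled knockout 1, 2 and 3. The library labelled knockout 1 thus held more *Islr* reads than 2 of the 3 controls and goes against its label, unless the reads lie outside the deleted part, which is not given. The library labelled control 2 in turn was at the level of knockouts 2 and 3, and so goes against its label as well, although a low level need not mean a deletion. With these 2 labels exchanged, the *Myog* sets would be the genotypes, so the *Myog* level and the loss of *Islr* cannot be told apart here. Values within the controls or within the knockouts follow the labels as given. The gene span used for *Islr* (GRCm38, chr9:58156268-58204306) is long enough to overlap other genes, and with no strand setting given its reads cannot all be assigned to it.

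Over the 14280 genes with a mean of at least 10 scaled reads, a gene was called higher or lower when the 3 Myog-high and 3 Myog-low libraries did not overlap and their mean log2(scaled reads + 1) differed by at least 1, a 2-fold difference. By this rule 826 genes were higher (5.78%) and 279 were lower (1.95%) in the Myog-high libraries, and the median difference over all genes was -0.04. Among the 10 genes with the largest differences upward were *Myh8*, *Igfn1*, *Myh3*, *Adamtsl2*, *Myh1*, *Mybpc1*, *Myh7b*, *Myh7* and *Casq1*. All of these encode proteins of the sarcomere or of its calcium store except *Adamtsl2*, which encodes a secreted protein of the matrix. *Igfn1* stood at 562 to 3226 scaled reads in the Myog-high and at 3.50 to 185 in the Myog-low libraries, and *Adamtsl2* at 119 to 589 against 0 to 28.5. The 10 genes with the largest differences downward were *Prss22*, *Acan*, *Cldn3*, *Hhip*, *U90926*, *Sele*, *Emcn*, *Wnt7b*, *Cend1* and *Trbc2*. *Hhip*, which binds and restrains hedgehog ligands, stood at 26.7, 81.0 and 36.5 in control 1, control 3 and the library labelled knockout 1, and at 255, 475 and 707 in knockout 3, knockout 2 and the library labelled control 2. The ligand gene *Wnt7b* stood at 32.2, 37.5 and 26.2 against 78.7, 373 and 471 in the same order, so for both knockout 3 lay nearest the Myog-high libraries. Knockout 3 did so for 91 of the 279 lower genes (32.6%), and the library labelled control 2 for 159 (57.0%). Several of the others are markers of tissues other than muscle. *Acan*, the cartilage proteoglycan, stood at 3.33 to 12.6 against 33.5 to 294, the protease gene *Prss22* at 0 to 7.67 against 31.0 to 53.5, and the claudin *Cldn3* at 0 to 1.70 against 2.33 to 122. *Sele* and *Emcn* encode surface proteins of endothelial cells and *Trbc2* a T cell receptor chain, the last at 43.4 to 268 against 354 to 1010. *Cd3e*, another T cell gene, had a mean below 10 scaled reads, so *Trbc2* alone does not show T cells. Bulk RNA cannot tell fewer cells of a kind from less RNA in each cell, which holds for every value below.

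**Figure D1:**
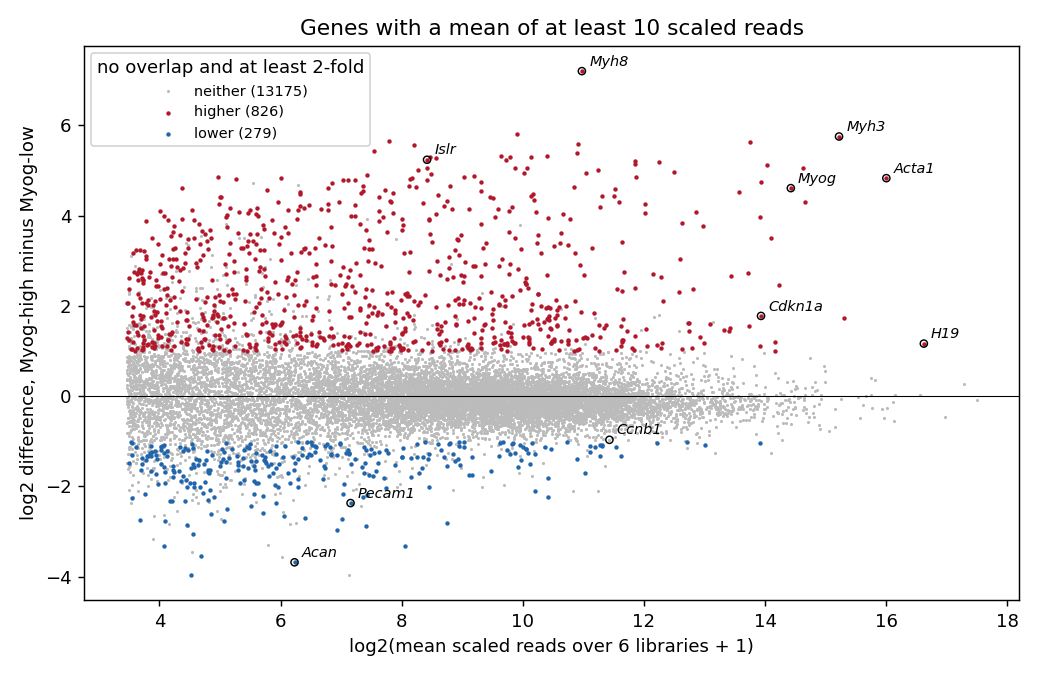
Each point is one of 14280 genes, with log2 of its mean scaled reads over the 6 libraries on the x axis and the log2 difference of Myog-high minus Myog-low libraries on the y axis. The 826 genes called higher reach a difference of 7.20 (*Myh8*), while the 279 called lower reach -3.95.

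Among 26 myogenic transcription factors, 25 passed the filter on low values, 8 were higher and 1 was lower. The shares over all genes were 5.78% and 1.95%. *Mef2c*, whose protein works with myogenin on muscle genes, stood at 4922, 2865 and 9549 in control 1, control 3 and the library labelled knockout 1, against 829, 257 and 81.6 in knockout 3, knockout 2 and the library labelled control 2. *Mef2a* stood at 7684 to 13685 in the Myog-high libraries and at 2685 to 4347 in the Myog-low ones. *Myf6*, the myogenic factor of maturing fibres, stood at 168 to 381 against 16.6 to 96.2. *Rbm24*, an RNA-binding regulator of muscle splicing, also did not overlap (4423 to 5704 against 984 to 2172), and neither did *Eya4* and *Tead4*. *Six2* was the one member lower, at 280 to 374 against 484 to 907. The factors that define the earlier state did not separate the libraries: the difference was 0.02 for *Myod1*, 0.15 for *Myf5* and -0.31 for *Pax7*, each with overlapping values. The median difference of the 25 was 0.15.

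**Figure D2:**
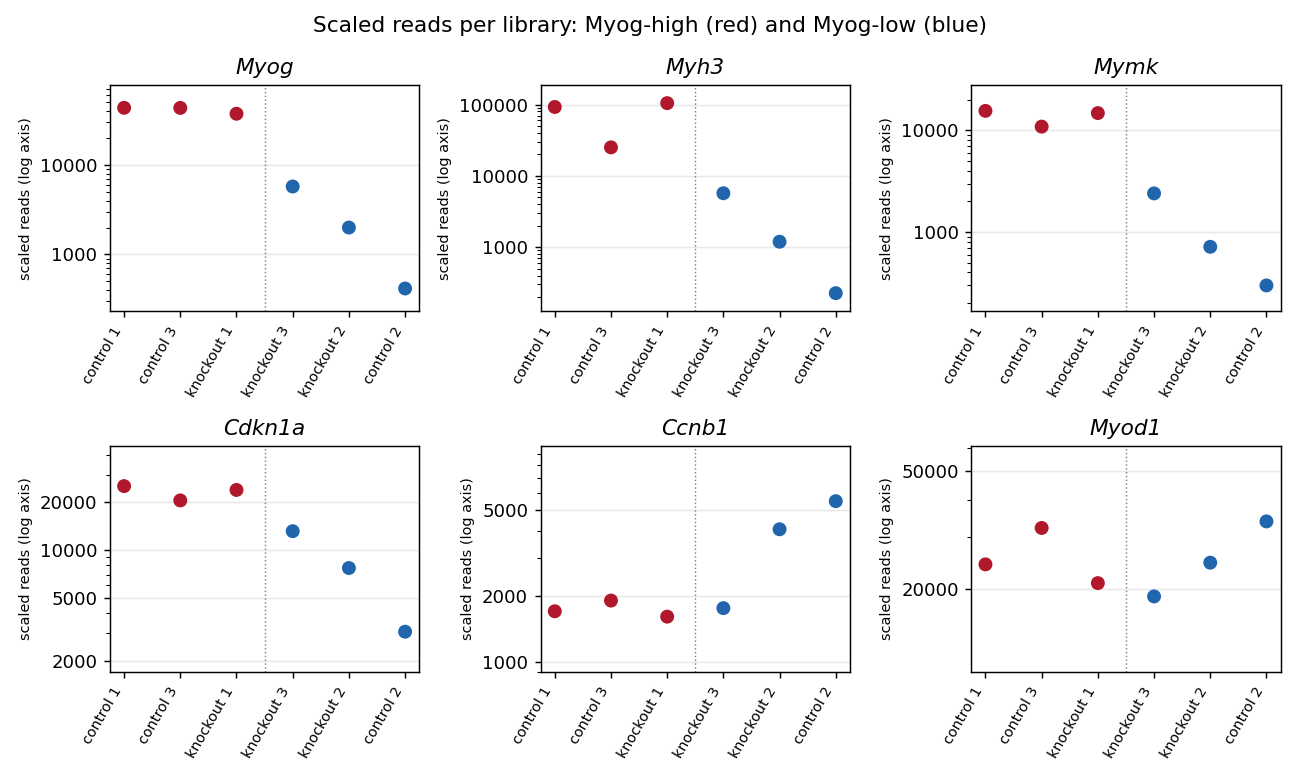
Scaled reads (log axes) of 6 genes in each library, with Myog-high libraries in red and Myog-low libraries in blue. *Myog*, *Myh3*, *Mymk* and *Cdkn1a* do not overlap between the sets and follow the order knockout 3, knockout 2, the library labelled control 2 among the Myog-low libraries, whereas knockout 3 lies among the Myog-high libraries for *Ccnb1* and *Myod1* overlaps.

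Structural genes of the sarcomere separated the libraries most. Of 31 myosin and thick filament genes, 25 passed the filter, 23 were higher and none was lower. The shares over all genes were 5.78% higher and 1.95% lower. The median difference was 4.74 log2 units against -0.04 over all genes. Genes at or near 0 in the Myog-low libraries pass such a filter only through the Myog-high ones. The count of 23 therefore describes the members that passed and supports nothing further. *Myh3*, the embryonic myosin heavy chain, stood at 92418 scaled reads in control 1, 25064 in control 3 and 104586 in the library labelled knockout 1. It stood at 5700 in knockout 3, 1190 in knockout 2 and 226 in the library labelled control 2, a difference of 5.75 or 54.0-fold between the sets. *Myh8*, the perinatal myosin heavy chain, stood at 3925, 1734 and 6079 in control 1, control 3 and the library labelled knockout 1, and at 297, 42.4 and 0 in knockout 3, knockout 2 and the library labelled control 2. With 1 library at 0, its difference of 7.20 depends on the pseudocount. *Myh7*, the slow myosin heavy chain, stood at 2683, 221 and 4975 against 153, 31.4 and 8.16 in the same order of libraries. Its values in control 3 and knockout 3 lay close together although *Myog* differed between these libraries, so the 2 sets are separated for *Myh7* by a narrow gap.

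Per length of transcript, in FPKM (fragments scaled by transcript length and library size), *Myh3* led the myosin heavy chain genes in each of the 6 libraries. It made up 64.6% to 74.2% of the summed FPKM of the 10 skeletal and cardiac heavy chain genes measured, and the Myog-low library labelled control 2 was as much led by it (74.2%) as the Myog-high control 1 (72.8%). Its FPKM was 819 in control 1 and 1.92 in the library labelled control 2, followed by *Myh1* with 240.0 and 0.559. Of the adult fast genes, *Myh4* did not exceed 1.085 FPKM in any library and *Myh2* did not exceed 4.425. *Myh1*, also an adult fast gene, stood at 240.0 in control 1, 70.2 in control 3 and 397 in the library labelled knockout 1. Heavy chain genes are close in sequence and reads may be split between them, so single members are uncertain.

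The other thick filament members went with the heavy chains. *Mybpc1*, a myosin-binding protein, stood at 1163 to 6176 scaled reads in the Myog-high and at 12.8 to 319 in the Myog-low libraries. *Ttn*, the molecular spring of the sarcomere, stood at 4679 to 71958 against 947 to 2374, and its highest value, in the library labelled knockout 1, was over 3 times that of control 1 (22842). *Mylk2* and *Mylk4*, myosin kinase genes, overlapped, with differences of 0.79 and 1.94. Libraries numbered 1 were the highest pair for 23 of the 25 members, against 13.4% of all genes tested, so control 3 was the lowest of the Myog-high libraries for these members.

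Of 44 thin filament and Z-disc genes, 40 passed the filter, 32 were higher and none was lower, with a median of 3.53. Over all genes 5.78% were higher and 1.95% lower. As for the thick filament, genes near 0 in the Myog-low libraries pass only through the Myog-high ones, so the count describes only the members that passed. *Actc1*, the cardiac actin of developing muscle, stood at 53650, 45067 and 45042 in control 1, control 3 and the library labelled knockout 1, and at 5620, 1734 and 301 in knockout 3, knockout 2 and the library labelled control 2. *Acta1*, skeletal actin, stood at 169682, 54467 and 149412 against 14254, 5220 and 804 in the same order, and so was the more spread of the 2 within the Myog-high set. *Csrp3* and *Actn2*, both of the Z-disc, differed by 5.29 and 4.86, and *Lmod2* and *Lmod3*, which nucleate actin filaments, by 5.07 and 4.95. Among the 8 members not called were proteins that other cells also use: *Tpm1* stood between 22356 and 41780 in all libraries with a difference of 0.13, *Tpm3* differed by -0.43 and *Pdlim5* by -0.11. *Xirp1* and *Xirp2*, which bind actin at the Z-disc and at cell attachments, overlapped because control 3 was low for both (1243 and 220).

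Excitation-contraction coupling turns a nerve signal into calcium release. Of its 31 listed genes, 29 passed, 22 were higher and none was lower, with a median of 2.72. Over all genes 5.78% were higher and 1.95% lower. Here too, genes near 0 in the Myog-low libraries pass only through the Myog-high ones, so the count describes only the members that passed. *Casq1*, the calcium buffer of the store in fast fibres, stood at 1020, 1063 and 2301 in control 1, control 3 and the library labelled knockout 1, and at 384, 29.5 and 2.33 in knockout 3, knockout 2 and the library labelled control 2. *Cacna1s*, the voltage sensor, stood at 518 to 3846 against 3.50 to 279, and *Ryr1*, the release channel, at 1987 to 9709 against 533 to 1204. *Atp2a1*, the fast calcium pump, differed by 5.02, whereas *Atp2a2*, the pump of slow and many other cells, differed by 0.30 with overlap.

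Of 30 genes of muscle energy metabolism, 27 passed, 16 were higher and none was lower, with a median of 2.25. Over all genes 5.78% were higher and 1.95% lower. The same limit of the filter holds for this count. *Ckm*, muscle creatine kinase, stood at 571, 1076 and 524 in control 1, control 3 and the library labelled knockout 1, and at 71.1, 34.1 and 1.17 in knockout 3, knockout 2 and the library labelled control 2. It was highest in control 3, where *Myh3*, *Myh7* and *Myh8* were lowest of the Myog-high libraries. Myoglobin (*Mb*) differed by 5.21, *Cox6a2* and *Cox8b*, muscle forms of cytochrome oxidase subunits, by 4.51 and 4.33, and the ADP-ribosyltransferase *Art1* by 5.00. The glycolytic genes *Aldoa* and *Eno3* were abundant in all 6 libraries (18762 to 40330 and 8428 to 28937 scaled reads) and differed by less than 2-fold.

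Of 30 genes of myoblast fusion, 27 passed, 6 were higher and none was lower, beside 5.78% higher over all genes. The median was 0.10. *Mymk*, the fusogen myomaker, stood at 15592, 10910 and 14823 in control 1, control 3 and the library labelled knockout 1, against 2402, 716 and 298 in knockout 3, knockout 2 and the library labelled control 2. *Mymx*, the fusogen myomixer, stood at 1062, 2276 and 665 against 155, 41.5 and 24.5. *Tmem182*, *Cav3* and *Dysf*, all membrane proteins of muscle, differed by 4.09, 4.04 and 2.13. The cadherin *Cdh15* was the sixth, with a difference of 1.07. Among the 21 not called, *Cdh2*, another cadherin, differed by 0.37, the integrin *Itgb1* by 0.18 and the small GTPase *Rac1* by -0.25, each with overlap.

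At the synapse, 13 of 15 genes passed and 2 were higher, beside 5.78% higher over all genes. *Chrng*, the fetal acetylcholine receptor subunit, stood at 5782 to 6236 against 759 to 2613, and *Chrnd*, another subunit, at 4134 to 4510 against 1404 to 2857. *Chrna1*, the alpha subunit, was already at 22454 or more in each Myog-low library and differed by 0.67. In the dystrophin complex, which ties the fibre's cytoskeleton to the matrix, 19 of 19 passed and 6 were higher, among them *Sntb1* (3.33), *Dtna* (2.00), *Sgca* (1.64) and *Itga7* (1.12). *Dmd* itself overlapped, since control 3 (178) lay below knockout 2 (230).

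Cell cycle genes leaned towards the Myog-low libraries without separating the sets. Of 45 genes of G2/M and mitosis, all 45 passed the filter and none was higher or lower by the rule. All 45 had a difference below 0, as did 53.5% of all genes tested, and their median was -0.56, with -1.25 within the controls, -0.19 within the knockouts and 0.15 in the number 3 pair. *Ccnb1*, the cyclin that starts mitosis, stood at 1708, 1913 and 1613 in control 1, control 3 and the library labelled knockout 1. In the Myog-low libraries it stood at 5482 in the library labelled control 2 and 4070 in knockout 2 but at 1765 in knockout 3, inside the Myog-high range. *Cdk1*, its partner kinase, stood at 2083, 2278 and 1769 against 5401 in the library labelled control 2, 4102 in knockout 2 and 1963 in knockout 3, again inside the Myog-high range. *Mki67* and *Top2a*, further marks of dividing cells, differed by -0.21 and -0.40 with overlap. The 2 libraries numbered 2 were the highest pair for 40 of the 45 genes, against 14.3% of all genes tested. Knockout 3 was within the range of the Myog-high libraries for 18 of the 45 and below it for 25, while over all genes it was within that range for 46.6%.

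Genes of DNA replication and S phase behaved alike: 52 of 52 passed, none was called, 50 had a difference below 0, the median was -0.39, and the number 2 libraries were the highest pair for 34. *Rrm2*, a subunit of the enzyme that makes deoxynucleotides, stood at 6863 in control 3 and 7781 in knockout 3, and at 15974 to 21851 in the other 4 libraries, which include 2 Myog-high ones. The number 3 pair gave a median difference of -0.07 for the S phase list. The sets were not named differentiating and proliferating, since knockout 3, a Myog-low library, was at the level of the Myog-high libraries or below it for most cell cycle genes, and they are called by *Myog* alone.

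**Figure D3:**
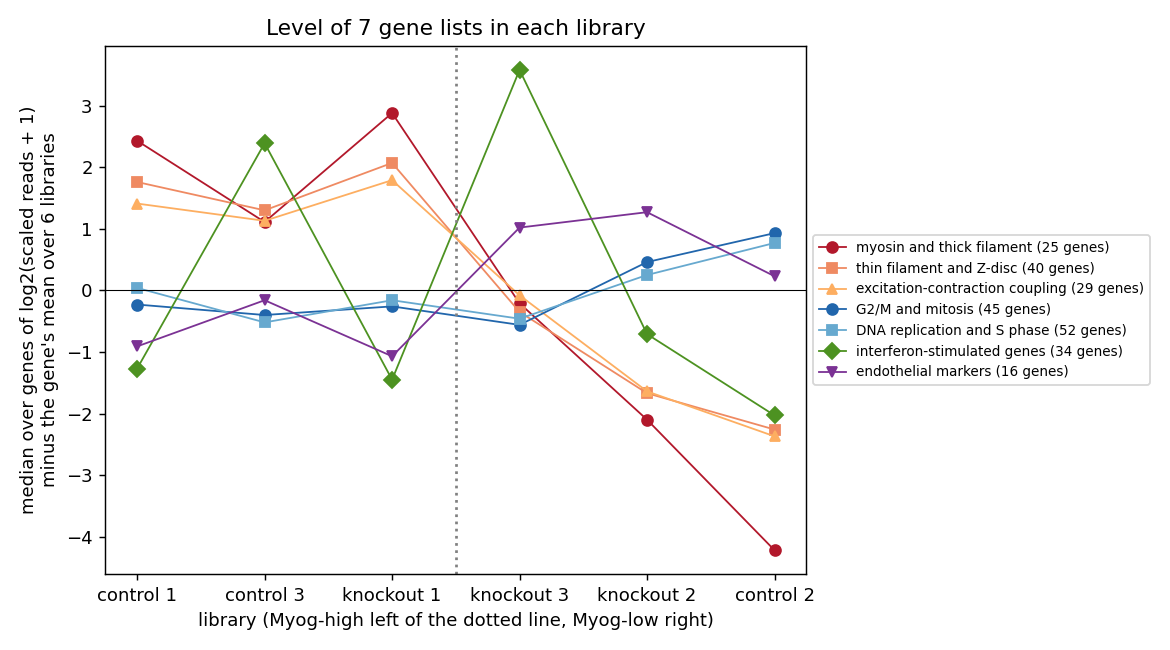
For 7 gene lists, each point is the median over genes of log2(scaled reads + 1) in a library minus the gene's mean over the 6 libraries. The 3 muscle lists lie above 1 in the Myog-high libraries and descend from knockout 3 to the library labelled control 2, while the G2/M list is above 0 only in the library labelled control 2 (0.93) and knockout 2 (0.46), and the interferon list only in control 3 (2.39) and knockout 3 (3.58).

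Regulators of cell cycle exit were mixed, with 3 of 27 higher, 2 lower and a median of 0.03. The shares over all genes were 5.78% higher and 1.95% lower. *Cdkn1a*, the p21 inhibitor of cyclin-dependent kinases, stood at 25350, 20587 and 23974 in control 1, control 3 and the library labelled knockout 1. It stood at 13165 in knockout 3, 7707 in knockout 2 and 3054 in the library labelled control 2, the order that *Myog* had among them. *Rb1*, the retinoblastoma protein that holds cells out of the cycle, stood at 1511 to 2259 against 506 to 665, and *Gadd45a*, a growth arrest gene, at 1207 to 1775 against 200.4 to 596. *Ccnd1*, the cyclin that growth factor signals induce, was lower, at 3323 to 6905 against 9204 to 12685, and so was the inhibitor *Cdkn2b*, at 145 to 480 against 557 to 874. *Cdkn1c*, p57, was at 5262 in control 3 and at 79.5 or less in the other 5 libraries.

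Of 28 genes that respond to ERK signalling, which FGF activates, 3 were lower and none was higher, with a median of -0.78. Over all genes 1.95% were lower. The 3 were *Etv4* (451 to 832 against 1126 to 1798), an ETS factor, *Hmga1* (8791 to 11448 against 16000 to 24736), a chromatin protein, and *Ccnd1* again. Feedback genes of the pathway differed by less than 2-fold and not all one way. *Dusp6* (692 to 1141 against 1229 to 2308, -0.80) and *Spry1* (682 to 894 against 369 to 545, 0.79) did not overlap and had opposite signs, while *Spry2* (-0.25) and *Spry4* (-0.53) overlapped. Within the number 3 pair the median was -1.36, and over the libraries of numbers 1 and 2 it was -0.34.

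Satellite cell markers gave 5 of 23 higher, none lower and a median of 0.15, beside 5.78% higher over all genes. *Itga7*, the laminin receptor, stood at 11468 to 26694 against 7988 to 11340, *Cdh15*, M-cadherin, at 5686 to 8839 against 2679 to 3702, and *Ncam1* at 4706 to 14438 against 3023 to 3841. *Erbb3* and *Sox8* differed by 2.48 and 1.90. *Itga7*, *Cdh15* and *Ncam1* are also expressed by committed myoblasts, and the quiescence genes *Calcr* and *Chrdl2* did not pass the filter.

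Inhibitors of differentiation gave 4 of 24 higher, none lower and a median of 0.33, beside 5.78% higher over all genes. *Hes6*, on this list although it antagonises the inhibitor Hes1, stood at 17835 to 25096 against 6243 to 7638, so the 4 are not all inhibitors. The Notch effectors *Heyl* (246 to 1561 against 68.6 to 153) and *Hey1* (217 to 665 against 82.0 to 165) were higher too, as was *Hdac9*, a repressor of MEF2 (53.7 to 112 against 12.9 to 39.3). Of 21 genes of the Notch pathway list that passed, *Heyl* and *Hey1* were the 2 higher and *Notch4* (-1.69) and *Dlk1* (-1.91) the 2 lower, with a median of 0.01. Over all genes the share lower was 1.95%. The inhibitors *Id1*, *Id2* and *Id3* differed by -0.20, -0.35 and -0.49 with overlap. *Mstn*, myostatin, was at 463 in knockout 3, above all Myog-high libraries, and at 2.33 in the library labelled control 2.

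In the insulin-like growth factor axis, which promotes myoblast differentiation and growth, 2 of 19 were higher, none was lower and the median was -0.08, beside 5.78% higher over all genes, so the count is near the background. *Igf1* stood at 66.7, 257 and 108 in control 1, control 3 and the library labelled knockout 1, against 28.5, 13.8 and 4.66 in knockout 3, knockout 2 and the library labelled control 2. The imprinted RNA *H19* stood at 90928 to 231933 against 54749 to 63815. *Igf2*, its neighbour, overlapped with a difference of 1.29.

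Matrix genes gave 2 higher and 2 lower of 47, with a median of -0.30, shares near those over all genes (5.78% and 1.95%), so the members below are given as single values. *Islr*, itself on this list, differed by 5.24 between the sets, and by 7.05 in the number 3 pair, where the contrast is also that of the genotypes. *Nid2*, a basement membrane linker, stood at 1798 to 2760 against 389 to 1544, whereas its paralog *Nid1* was lower, at 1372 to 2226 against 3529 to 5756. *Lama4*, a laminin chain of vessels and nerve, was lower as well (67.3 to 74.2 against 117 to 390). *Sparc*, a secreted matrix protein named in the series' title, stood between 26619 and 35643 in all libraries, with a difference of 0.02.

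**Figure D4:**
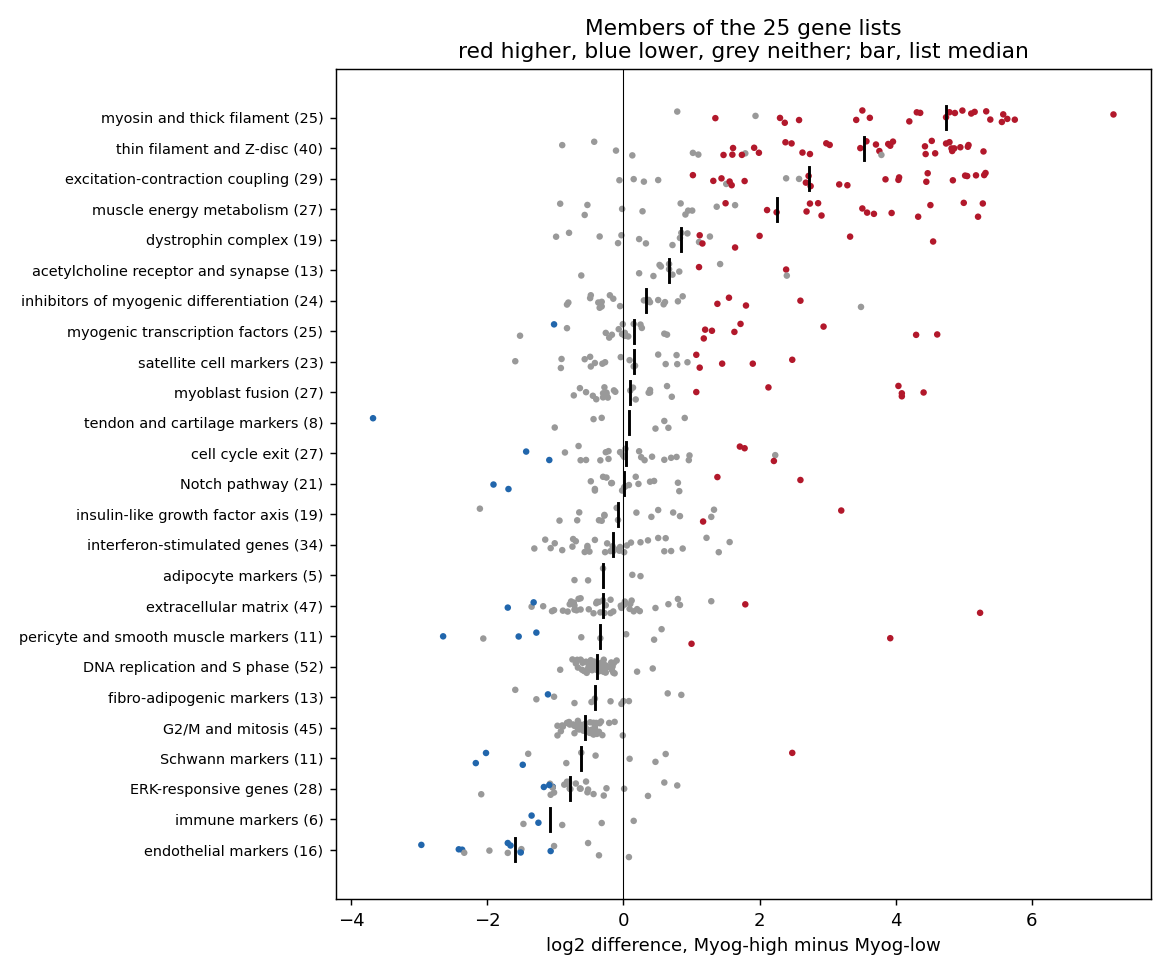
Each point is a gene that passed the filter, with its log2 difference of Myog-high minus Myog-low libraries on the x axis and its list on the y axis, and bars mark list medians. The thick filament, thin filament, coupling and metabolism lists have medians of 2.25 to 4.74, and the endothelial list has the lowest, -1.59.

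Markers of other cell types were compared as whole lists, since a sort may leave other cells. All 16 endothelial genes passed, 8 were lower and none was higher, with a median of -1.59, beside 1.95% lower over all genes. The median of this list was -0.87 within the controls and -2.25 within the knockouts. Relative to each gene's mean over all libraries, it was 1.27 in knockout 2 and 1.02 in knockout 3. In the library labelled control 2 it was 0.23, against -0.16 in control 3. *Pecam1*, the adhesion molecule of vessels, stood at 26.7, 101 and 27.4 in control 1, control 3 and the library labelled knockout 1, against 198, 328 and 168 in knockout 3, knockout 2 and the library labelled control 2. *Cdh5*, VE-cadherin, stood at 111 to 161 against 226 to 633, and *Emcn* at 8.89 to 89.5 against 119 to 278. The summed level of the 16 was 505 to 808 scaled reads in the Myog-high and 965 to 2183 in the Myog-low libraries. Of 17 immune markers, 6 passed and 2, *Coro1a* and *Laptm5*, were lower, beside the same 1.95% over all genes. The summed level of the 16 immune markers in the table was 241 to 646 against 730 to 1291. The median of the immune list was -1.08 over all libraries, but 0.55 within the controls and -1.55 within the knockouts. *Ptprc*, which defines blood cells, and the T cell gene *Cd3e* did not pass the filter.

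Schwann markers gave 3 lower (*Sox10*, *Foxd3* and *Cdh19*) and 1 higher (*Erbb3*) of 11, with summed levels of 2384 to 3553 against 1032 to 2734. *Sox10*, the defining factor, stood at 31.9 to 51.1 against 83.9 to 293. Pericyte and smooth muscle markers gave 3 lower (*Myh11*, *Cnn1* and *Mcam*) and 2 higher (*Abcc9* and *Acta2*, both also expressed in muscle cells) of 11, with summed levels of 21506 to 39889 against 13594 to 21245. Fibro-adipogenic markers gave 1 lower (*Smoc2*) of 13, with overlapping sums of 3946 to 8839 and 1948 to 10764. Adipocyte markers gave none of 5 (*Lpl* and *Cebpa* were the most abundant), with sums of 928 to 2890 and 668 to 3848, and *Adipoq* did not pass the filter. Tendon and cartilage markers gave *Acan*, lower, of 8, with sums of 5096 to 6786 and 4096 to 4954. For these counts, the shares over all genes were 5.78% higher and 1.95% lower. No member of these lists in the table was at 0 in all 6 libraries. Their part in the differences of muscle and cell cycle genes was not tested.

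Interferon-stimulated genes separated the libraries by replicate number and not by *Myog*. Of 36, 34 passed, and both libraries numbered 3 were the highest pair for all 34 of these, against 17.0% of all genes tested. *Isg15*, a ubiquitin-like antiviral protein, stood at 1080 in control 3 and 1604 in knockout 3 and at 25.6 or less in the other 4. *Ifit1* stood at 1168 and 811 against 23.1 or less. No member was higher or lower by the rule, since control 3 is Myog-high and knockout 3 Myog-low. The number 3 pair thus shares a strong difference from the other libraries that lies across the *Myog* split.

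The genes called by the rule differed in the size of the difference within single pairs. They were called from these same libraries, so the direction is fixed in every pair and large shares follow in part from the rule. Of the 826 higher genes, 489 (59.2%) were at least 2-fold higher in control 3 than in knockout 3, and 792 (95.9%) in the 2 libraries numbered 1 than in the 2 numbered 2. Among the 14280 genes, 994 were so in the number 3 pair, and 1554 were so without overlap in numbers 1 and 2. Of the 279 lower genes, the same shares were 72.0% and 89.2%. The counts among the 14280 genes were 1328 and 779 lower. Knockout 3 was the highest Myog-low library for 632 of the 826 (76.5%), and control 3 the lowest Myog-high library for 497 (60.2%). Among the 279 lower genes, the lowest Myog-low library was the one labelled control 2 for 159 (57.0%) and knockout 3 for 91 (32.6%). For 493 of the 826 (59.7%) the Myog-low libraries stood in the order the library labelled control 2, knockout 2, knockout 3, the order of their *Myog*, as they did for 32.7% of all genes tested. The lower genes did not go with *Myog* in this way. The reverse order was found for 56 of the 279 (20.1%), against 30.2% of all genes tested.

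For the thick filament list the median difference was 6.35 within the control libraries, 4.16 within the knockout libraries and 1.51 within the number 3 pair. For the thin filament list the same medians were 4.13, 3.15 and 1.76. *Ckm* differed by 3.90 and *Myog* by 2.91 within the number 3 pair, but *Myh7* only by 0.52. Without knockout 3 the counts were 1342 higher and 469 lower, and without control 3 they were 1222 and 729. Without the library labelled control 2 the count of lower genes was 677.

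The genotypes were tested as the labels give them, since that comparison did not use the rule. By limma on log2(scaled reads + 1), with Benjamini-Hochberg adjustment over the 14280 genes, 0 genes passed an adjusted p of 0.05 (0.0%), while 120 had an unadjusted p under 0.05. On the recovered reads edgeR and DESeq2 also called 0, with 168 and 242 genes at an unadjusted p under 0.05. These p-values measure only the spread between these libraries. For *Myog* the knockout minus control difference was -0.29 with a standard error of 2.01, and for *Myh3* it was 0.14 with a standard error of 2.55, so the spread within each genotype was many times the difference. For *Islr* it was -2.42 with a standard error of 1.99 and an adjusted p of 1.00 by limma. With the replicate number as a block, again 0 genes passed (609 unadjusted), and with the *Myog* set as a term in the model 0 genes passed (233 unadjusted). DESeq2 on recovered reads with the block called 5 genes, all higher in the knockout libraries. The genotype and *Myog* contrasts share all 6 libraries, so their differences are not independent of each other.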

How the data were processed

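RNA-seq was made from 6 mouse satellite cell libraries, 3 control and 3 labelled *Islr* knockout. The submitters' processing notes name the aligner HISAT2 2.0.5 with the read trimmer Trimmomatic, the counter HTSeq, and for testing edgeR 3.18.1 as well as DESeq2 1.16.1. No strand setting or annotation is given in the sources used here. The deposited table gives, per gene, a signal of reads divided by the library's size factor, by the authors, together with their FPKM, their baseMean signal, and a log2 fold change with its p-value that were not used for results. A second deposited table gives raw counts for 1031 features, and 6 sample columns of FPKM in it were not used. Whole reads were recovered from the scaled values: 100.0% came out whole within 0.01, and the 480 genes in both tables had the same count. Gene spans equal GENCODE M21 (GRCm38) for 26940 of 27093 Ensembl genes, 273 further features are unannotated loci, and 36 damaged lines were dropped. The column tied to control 1 differs from its label by an exchange of 2 digits, while the other 5 equal theirs.

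Genes with a mean of at least 10 scaled reads were kept (14280). Differences are between mean log2(scaled + 1) of the 3 Myog-high and 3 Myog-low libraries, called when the libraries did not overlap and differed by at least 2-fold, with no test. Genotype was tested with limma 3.58.1 (trend and robust), and with edgeR 4.0.16 and DESeq2 1.42.0 on the recovered reads, after a test on simulated data. Replicate numbers were taken to pair the libraries: the correlations of same-numbered deviations from the genotype means were 0.689, 0.633 and 0.625, against -0.513 to -0.245 for different numbers. This comes from the data, not the labels. Because deviations are taken from the mean of each genotype, positive values for the same number push those for different numbers below 0. Both libraries numbered 1 were Myog-high and both numbered 2 Myog-low. For these numbers a pairing and the *Myog* level cannot be told apart, and pairing was not tested. The members, the threshold and the 25 gene lists were chosen with earlier results of these data known. Named genes are 8 fixed ones, up to 5 members of each list by size of difference among those called (or the 2 most abundant), and the 10 largest differences each way. Others, such as *Cdk1*, *Acta1*, *Ttn*, *Ryr1* and the *Id* genes, were given for their textbook roles and chosen after their values were seen. A few genes that the rule names are not reported here. Alternatives were TMM scaling, library size alone, a pseudocount of 0.5, filters at a mean of 1 and 50, a 4-fold limit, subsets of libraries and leaving out each library. Between 16456917 and 20531276 reads stand behind each library. Promoter sequences are from RefSeq, GRCm38.p6, matched by symbol with the first listed start.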

Additional observations from a re-analysis of the deposited data

Results flagged for a closer look

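For 3 of the 25 gene lists, the median difference of Myog-high minus Myog-low was at least 2-fold in opposite directions in the 2 genotypes. These differences were not tested. The direction held in every library of each genotype, but the 2-fold size did not. For the interferon list, the median relative to each gene's mean over all libraries was -1.27 in control 1 and -2.03 in the library labelled control 2. Of all genes tested, 549 (3.84%) showed such opposite 2-fold differences. The immune list (0.55 and -1.55) and the Schwann list (0.28 and -1.29) also had opposite signs, by less than 2-fold in the controls. The median of the interferon-stimulated genes was 2.39 higher on the log2 scale in controls 1 and 3 than in the library labelled control 2, and -2.76 in the library labelled knockout 1 against knockouts 2 and 3, a gap of 5.15. For the fibro-adipogenic markers the medians were 1.10 and -1.48, a gap of 2.58. For the adipocyte markers they were 1.01 and -1.60 over 5 genes, a gap of 2.61. The libraries of number 3 were the highest pair for 34 of 34 interferon genes, but for 5 of 13 fibro-adipogenic and 2 of 5 adipocyte genes.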

How the results depend on the processing

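The count of higher genes (826) was 848 with TMM scaling, 796 with library size alone, 832 with a pseudocount of 0.5 and 565 with a mean of at least 50. It was 1318 with a mean of at least 1, 434 at 4-fold, 2317 in the control libraries only, 1630 in the *Islr* knockout libraries only and 1554 for numbers 1 and 2 only. The count of lower genes (279) was 514 and 161 with a mean of at least 1 and 50, 45 at 4-fold, 1210 in the controls, 1616 in the knockouts, 1328 in number 3 only and 779 for numbers 1 and 2. Fewer libraries overlap more rarely, so counts in subsets are larger by construction. Leaving out each library gave 845 to 1342 higher and 295 to 729 lower genes; the largest counts came without knockout 3 (1342) and control 3 (729).

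The genotype count was 0 with limma under each setting, with 25 to 538 genes at an unadjusted p under 0.05 when a library was left out. With the replicate block it was 0 (609 unadjusted) with limma and 0 (636) with edgeR. It was 5 with DESeq2 and the replicate block (687), a setting chosen after seeing the data like its edgeR counterpart, and 0 without the block (242). The cause was not tested. No named gene past the rule changed sign in any setting, which non-overlap fixes in the subsets. The sign of the list medians was kept by 15 of 25 in the controls only, 20 of 25 in number 3 only and 25 of 25 with TMM scaling; the changes include immune (-1.08 to 0.55) and Schwann markers (-0.62 to 0.28) in the controls and G2/M genes (-0.56 to 0.15) in number 3. With 3 libraries a set, chosen by value, no error can be attached to the differences.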
